A study of Rattus norvegicus with 4 samples.

Results

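Chromatin remodellers move, evict or exchange nucleosomes with the energy of ATP, and histone lysine methyltransferases and demethylases add or remove the methyl marks that reader proteins recognise on histone tails. Many of these genes act in the developing cortex: the BAF complex changes subunits as progenitors become neurons, the NuRD complex represses lineage genes, and methylation of histone H3 at lysine 4 marks active promoters and enhancers. Several, among them Chd8, Arid1b, Kdm5c and Setd5, are known genes of human neurodevelopmental disorders. The genes described here are the 61 rows of the deposited tables whose symbols begin with Chd, Kmt2, Kmt5, Kdm, Setd, Arid1, Arid2, Arid4, Arid5 or Smarca to Smarce, with the number of the family member, out of 18755 genes listed. All 61 also met the second condition of an FPKM (fragments scaled by gene model length and library total) of at least 1 in at least 1 library, as did 12394 genes in all. The members with the lowest maximum were Setd7 at 2.53 FPKM, Smarcd2 at 2.56 and Kdm7a at 2.67, and no matching row fell under the limit. Kmt2d was not analysed here.

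The RNA came from primary cortical cells of Sprague Dawley rats taken at embryonic day 16 and grown for 24 h on 1 of 4 hydrogels, SFMA, N-SFMA, L-SFMA or NL-SFMA (the treatment labels write L@SFMA and NL@SFMA for the last 2). Values below follow this order of gels where none is named, and sets of 3 follow it without SFMA. All groups shared the same cells, seeding density of 100000 cells per well, Neurobasal medium with B27 and time. SFMA, the gel with neither letter in its name, was the reference. The labels do not say what N and L stand for or whether the 5 parallel wells per gel were pooled. There was 1 library per gel, with 14172205 to 17553098 counted reads, so no difference could be set against a spread between replicates and no p-value is given. Intervals on folds cover counting error only, with no spread between cultures. They may be too narrow even for that, because reads that share a PCR origin are not independent molecules.

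The cultures held neuronal markers at high level in every library, and progenitor markers that differed between gels. Summed over 7 neuronal markers (among them Tubb3, Dcx and Map2), the level was 2917, 3944, 3258 and 3057 FPKM. Tubb3 made up most of this sum, at 1882, 2602, 1957 and 1659 FPKM, whereas Dcx and Map2 were well above SFMA on NL-SFMA (log2 differences of 1.95 and 1.94). The 8 radial glial markers, all detected, summed to 1537, 687, 668 and 762 FPKM in the same order. Vim made up most of this sum, at 1088, 535, 486 and 633 FPKM. Sox2, Nes, Hes1, Fabp7 and Hopx were lowest on NL-SFMA, and Pax6 and Slc1a3 on N-SFMA. The 6 markers of cycling cells summed to 371, 226, 215 and 217 FPKM. The cycling markers went apart: Mki67 was above SFMA on the other gels (log2 differences of 0.62, 0.74 and 1.54) and Top2a on NL-SFMA (0.80), while Pcna, the largest part of the sum, was below (-0.83, -0.99 and -1.08), as was Cdk1 (-1.08, -1.01 and -1.61). The 6 interneuron markers summed to 317, 222, 197 and 109 FPKM, of which Sst was 204, 110, 82.3 and 34.5 FPKM. Their median log2 difference from SFMA was 0.015, -0.006 and -0.70, so on N-SFMA and L-SFMA the lower sum was mainly that of Sst. The 5 of 6 microglial markers found summed to 21.2, 7.47, 14.8 and 5.62 FPKM. The 3 erythroid markers found of 4 listed summed to 524, 159, 89.8 and 67.5 FPKM. Astrocyte, oligodendrocyte lineage, endothelial and fibroblast markers summed to between 0.171 and 12.1 FPKM, with Dcn and Lum, both of fibroblasts, at 0 reads in at least 1 library, as was C1qa of the microglial markers. Mitochondrially encoded genes held 2.68%, 2.23%, 2.33% and 5.89% of the reads. These levels move with the comparisons below, and their part in them was not tested. In such bulk RNA, fewer cells of a type and less RNA per cell cannot be told apart.

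Most members were above SFMA on each of the other gels. The 61 genes together held 0.693%, 0.969%, 1.06% and 1.05% of the reads, and their median level was 9.31, 12.1, 15.7 and 17.7 FPKM, while the median over all tested genes was 9.42, 9.60, 10.6 and 9.27 FPKM. In 47 of the 61 all 3 other libraries were above SFMA, and in 6 all 3 were below it; over all tested genes these shares were 34.8% and 36.7%. Differences below are log2 ratios of FPKM + 1, a scale that understates the difference of genes with low levels, and counts of genes as higher or lower are of those past 1.5-fold or 2-fold on that scale. On N-SFMA the median difference of the members was 0.43 (all tested genes -0.02), with 18 at least 1.5-fold higher and 1 lower, where 7.24% of all tested genes were higher and 10.7% lower. On L-SFMA it was 0.67 (all tested genes 0.05), with 33 at least 1.5-fold higher (14.8% of all tested genes) and 1 lower (11.1%). On NL-SFMA it was 0.71 (all tested genes -0.10), with 32 higher (21.6%) and 5 lower (29.3%). Past 2-fold there were 1, 8 and 18 members higher in these 3 comparisons (0.855%, 3.32% and 10.1% of all tested genes) and 0, 1 and 2 lower (2.65%, 3.04% and 15.1%). All 3 comparisons use the same SFMA library, so a high or low count in it enters each of them.

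**Figure D1:**
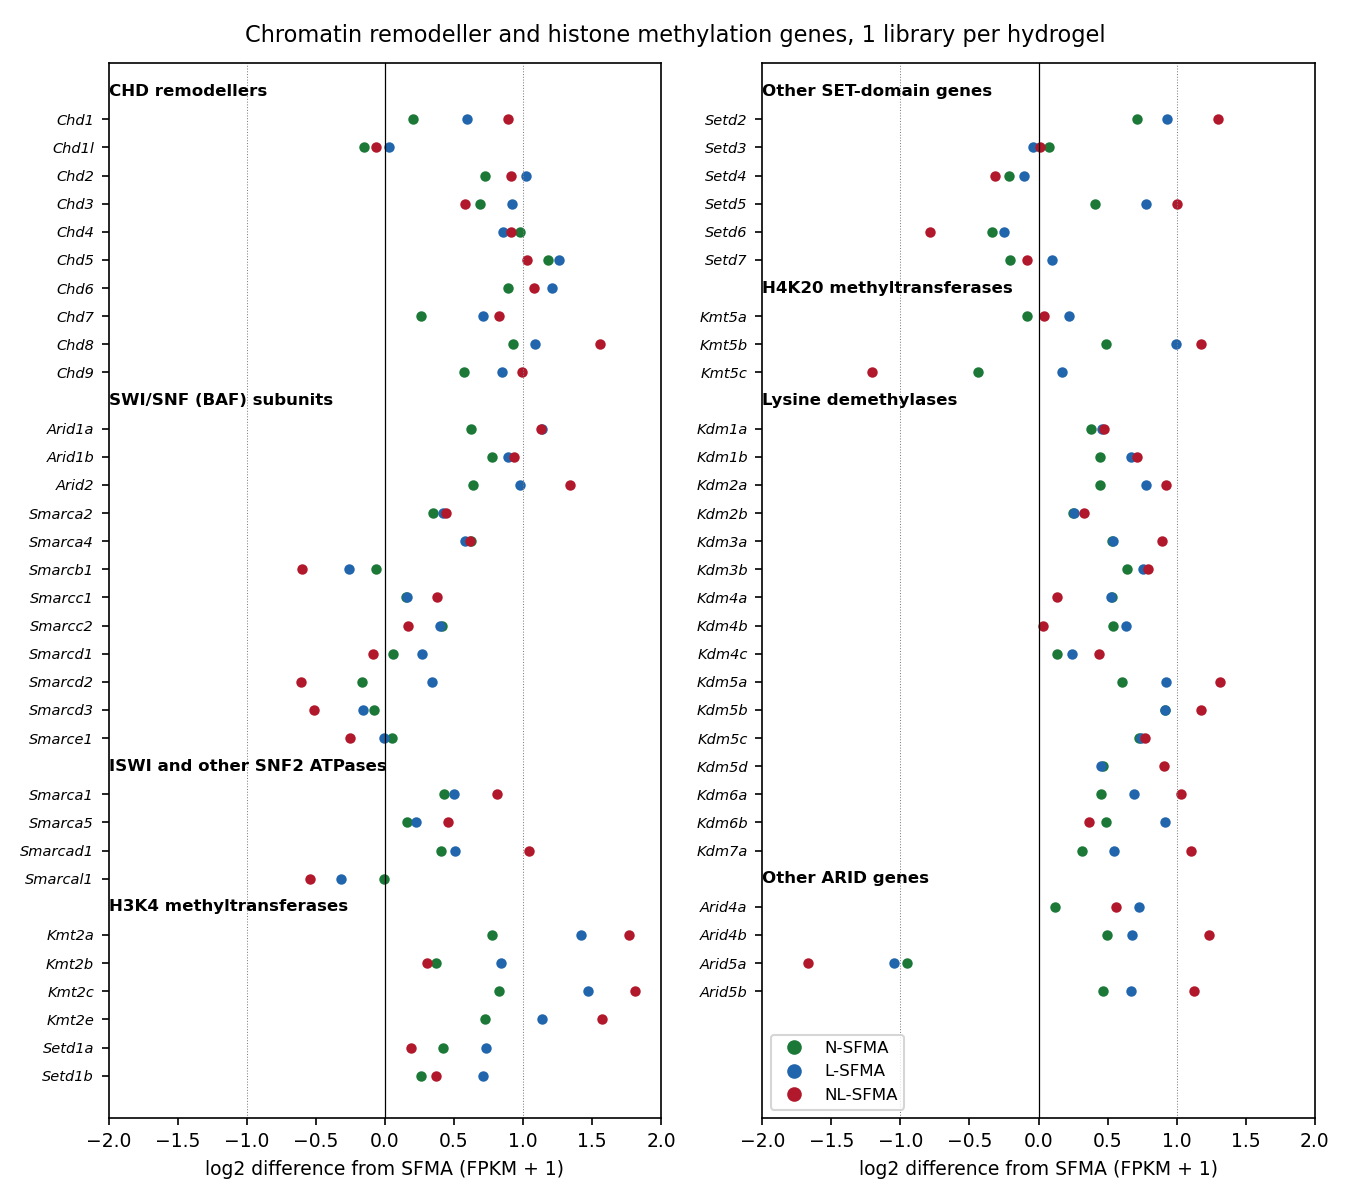
Log2 difference of each of the 61 members from SFMA (x axis, FPKM + 1, no unit), by class, with 1 point for each of the other 3 libraries and dotted lines at 2-fold. Most points lie right of 0, and 12 members, among them Arid5a, Kmt5c, Setd6, Smarcb1 and Smarcal1, lie left of it on NL-SFMA.

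These are long genes, and long genes as a whole were higher on the other gels. The median model length of the members was 6054 bases (range 1683 to 16382), against 2968.5 for all tested genes. Among other genes over 8 kb the median difference was 0.43, 0.66 and 0.92, and among the 18 members of that length it was 0.59, 0.87 and 1.02. Between 4 and 8 kb the other genes had medians of 0.22, 0.37 and 0.41 and the 32 members 0.47, 0.67 and 0.78. Under 4 kb the other genes had medians of -0.14, -0.11 and -0.38 and the 11 members -0.08, -0.11 and -0.51. The long members thus stood highest and the short ones lowest, as among other genes. Of the 18 longest members 9, 14 and 13 were at least 1.5-fold higher, where 32.8%, 55.9% and 67.2% of other genes over 8 kb were, and of the 32 between 4 and 8 kb 9, 19 and 19 were, where 11.8%, 27.1% and 39.6% of the other genes were. Of the 11 short members 0 were 1.5-fold higher on any gel (3.53%, 7.04% and 11.5% of other short genes), and 4 were lower on NL-SFMA (39.2%). Across the 61 members the log2 difference and log2 length had a Pearson r of 0.60, 0.74 and 0.71, and across the other tested genes 0.46, 0.52 and 0.50. Genes are not independent replicates, and the points of a panel share both libraries.

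**Figure D2:**
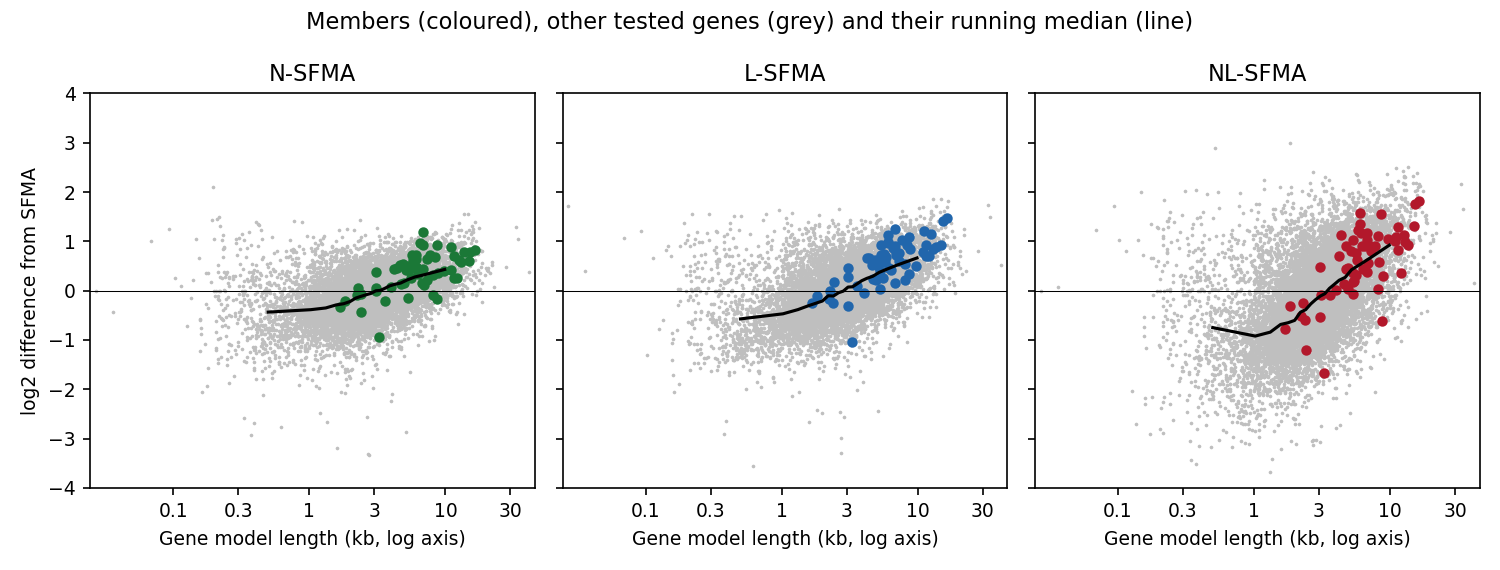
Log2 difference from SFMA (y axis) against gene model length in kb (log x axis), with 1 panel per gel; coloured points are the 61 members, grey points the other tested genes and the line their median in 20 length bins. Members lie along and mostly a little above the line in the first 2 panels and on both sides of it on NL-SFMA.

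To compare each member with genes of like length, the median difference of the 500 other tested genes nearest in model length was subtracted. What remained was small: a median over the 61 members of 0.19, 0.21 and 0.16, with 43, 45 and 35 members above their length reference. Under the 5 other settings tried these medians lay between 0.15 and 0.19, between 0.13 and 0.20 and between 0.03 and 0.12. On N-SFMA 3 members stayed at least 1.5-fold above genes of like length (Chd5, Chd4 and Kdm5b) and 1 below (5.92% and 6.7% of all tested genes). On L-SFMA 4 did (Chd5, Kmt2c, Kmt2a and Kmt2e) and 1 lay below (8.29% and 7.35%). On NL-SFMA 10 lay above and 5 below (19.7% and 18.2%). In each of these counts the share of the members was no larger than that of all tested genes. The differences relative to like-length genes are given below as relative differences, on the same log2 scale.

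The CHD family of remodelling ATPases was mostly above SFMA. Of its 10 members 6, 9 and 8 were at least 1.5-fold higher on N-SFMA, L-SFMA and NL-SFMA and 0 were lower. Among other genes over 8 kb 32.8%, 55.9% and 67.2% were higher, and among those from 4 to 8 kb 11.8%, 27.1% and 39.6%. The class medians were 0.71, 0.89 and 0.91 and the relative medians 0.34, 0.34 and 0.18. The NuRD ATPases Chd5 and Chd4 had the largest differences of the 61 members on N-SFMA (1.18 and 0.98). Chd4, the ATPase of NuRD in most cells, was at 47.4 FPKM on SFMA and 94.3, 86.6 and 90.0 FPKM on the other 3 gels. The other 3 gels gave nearly the same level, and its fold on N-SFMA was 1.99 (1.92 to 2.06), with the 95% counting interval in brackets here and below. Chd3, its paralog, was at 63.7, 103, 121 and 95.8 FPKM, highest on L-SFMA. Chd5, the paralog found mainly in neurons, was at 3.18, 8.48, 9.01 and 7.53 FPKM, and its fold was 2.67 (2.36 to 3.02), 2.84 (2.52 to 3.20) and 2.37 (2.09 to 2.69). Its relative differences, 0.89, 0.78 and 0.42, were the largest of the 61 members on N-SFMA and on L-SFMA. Per length, Chd3 and Chd4 stood far above Chd5 in each library.

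The large CHD6 to CHD9 proteins had gene models of 8646 to 12932 bases and were all above SFMA in each comparison. Past 1.5-fold there were 2 of the 4 on N-SFMA and 4 on each of the other gels. The shares of other genes over 8 kb were 32.8%, 55.9% and 67.2%. Chd8, a regulator of Wnt target genes and a leading autism gene, was at 12.6 FPKM on SFMA and 24.8, 27.8 and 38.9 FPKM on the other 3 gels. It stood highest on NL-SFMA, at 3.09 (2.93 to 3.26) times SFMA, with relative differences of 0.57, 0.50 and 0.76. Chd6 was at 3.62, 7.55, 9.66 and 8.76 FPKM and Chd9 at 2.55, 4.28, 5.37 and 6.07 FPKM. Chd7, the gene of CHARGE syndrome and a factor of neural progenitors, was at 3.31, 4.16, 6.06 and 6.63 FPKM and its relative differences lay between -0.18 and 0.03. Chd1, which reads H3K4 methylation, was at 5.70, 6.74, 9.10 and 11.5 FPKM, and Chd2, an epilepsy gene, at 4.11, 7.45, 9.38 and 8.61 FPKM. Chd1l, a remodeller of the DNA damage response, was the member of the family with the smallest differences, at -0.15, 0.03 and -0.06. The second of these values changes sign when libraries are scaled by TMM or DESeq2 size factors, and the third under DESeq2.

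The subunits of BAF, the mammalian SWI/SNF complex, divided by the length of their models, with class medians of 0.25, 0.37 and 0.27 over 12 genes. The ARID subunits, which sit at the base of the complex and define its subtypes, were higher. Arid1a was at 9.97 FPKM on SFMA and 15.9, 23.2 and 23.0 FPKM on the other 3 gels, a fold of 2.31 (2.19 to 2.43) on NL-SFMA. Arid1b, its exclusive alternative, was at 6.65, 12.1, 13.2 and 13.6 FPKM. Arid2, the subunit of the PBAF form, was at 9.31, 15.0, 19.3 and 25.2 FPKM, 2.70 (2.50 to 2.92) times SFMA on NL-SFMA and with a relative difference there of 0.82. Over the 3 ARID subunits the relative differences on NL-SFMA ran from -0.03 to 0.82, the latter that of Arid2, with a median of 0.17. Both ATPases that can power the complex were higher by less. Smarca4, at 89.8, 139, 135 and 138 FPKM, was similar on the other 3 gels, where its differences lay between 0.58 and 0.62. Smarca2, which gains weight in differentiated cells, was at 17.2, 22.1, 23.3 and 23.8 FPKM.

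The core and accessory BAF subunits, 4 of 7 with models under 4 kb, showed smaller differences or lower values on NL-SFMA. Smarcb1, the core subunit whose loss causes rhabdoid tumours, was at 104 FPKM on SFMA and 99.8, 86.8 and 68.5 FPKM on the other 3 gels. It was lowest on NL-SFMA, 1.52-fold lower (95% counting interval 1.45 to 1.60) than SFMA, yet its relative difference there was only -0.21. The scaffold Smarcc1 was at 49.9, 55.7, 55.8 and 65.1 FPKM and its paralog Smarcc2 at 87.8, 117, 116 and 98.6 FPKM. Of the BAF60 subunits, Smarcd3, the form known from heart development, was at 75.8, 71.6, 67.7 and 52.9 FPKM, and Smarcd1 differed by 0.06, 0.27 and -0.09, the last of which changes sign with size factors from DESeq2. Smarcd2 had 275, 201, 363 and 103 reads over a listed model of 8667 bases, and on NL-SFMA it lay -1.40 from genes of that length. Smarce1, a DNA-binding subunit and the most abundant member per length, was at 193, 199.8, 192 and 162 FPKM. Of these 7 core and accessory subunits 0 were 1.5-fold higher on any gel (7.24%, 14.8% and 21.6% of all tested genes). On NL-SFMA 2 were 1.5-fold lower, a share close to the 29.3% of all tested genes.

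**Figure D3:**
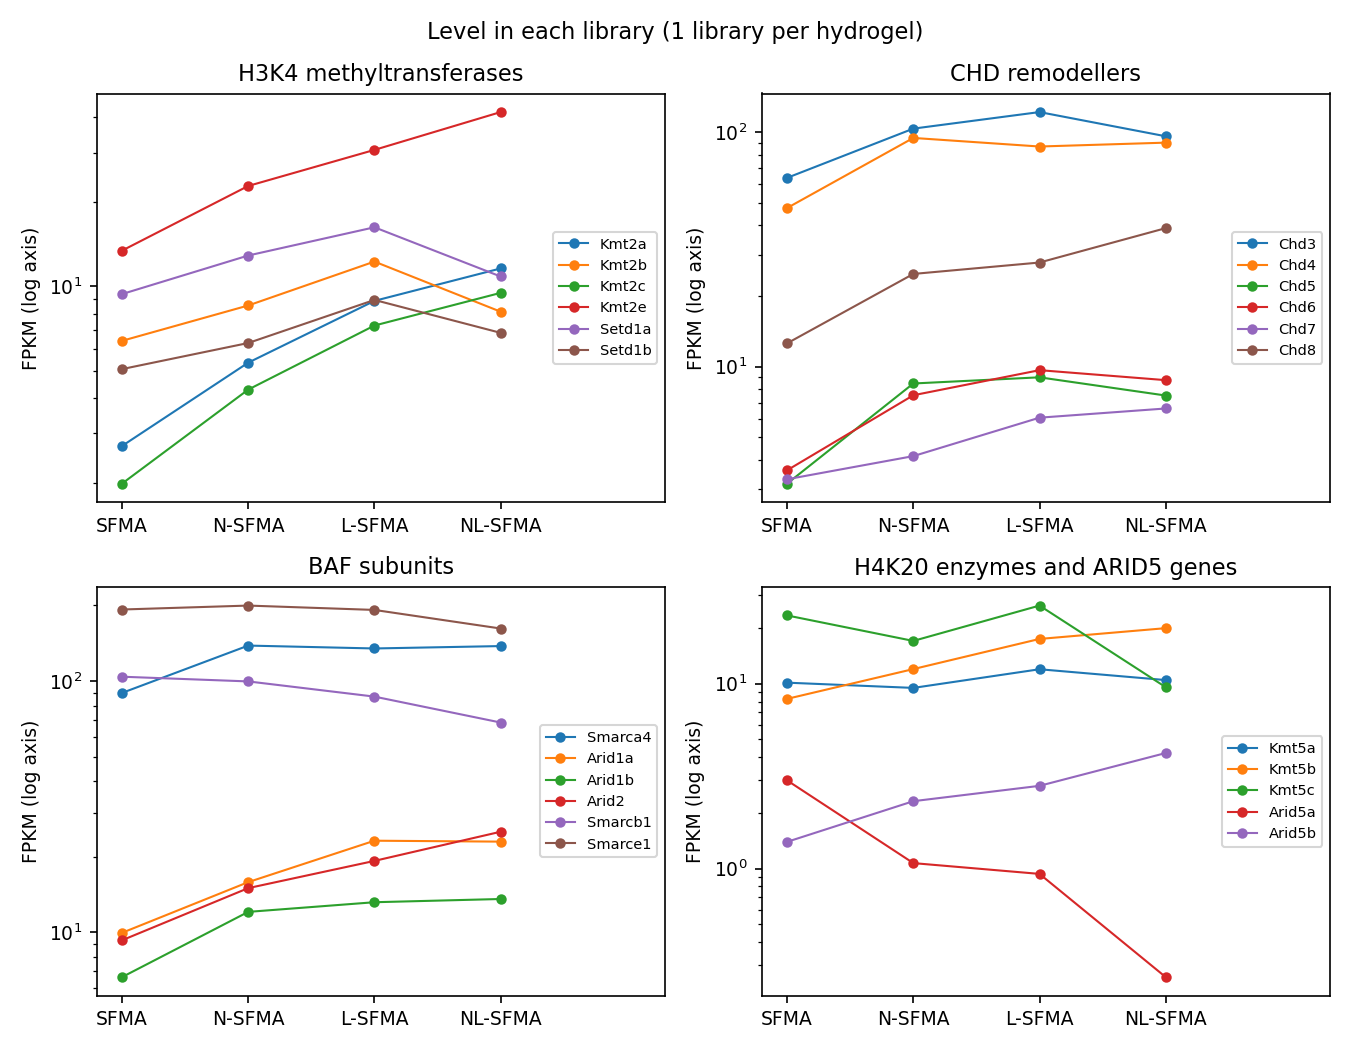
FPKM in each library (y axis, log scale) of 23 members in 4 panels, with 1 point per library and lines that join 1 gene and imply no order of the gels. Kmt2a, Kmt2c and Kmt2e are highest on NL-SFMA, while Kmt2b, Setd1a and Setd1b are highest on L-SFMA.

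The partners of these complexes, from lists that the symbol rule does not reach, also divided by length. Over partners and members, the 14 BAF subunits under 4 kb had medians of -0.05, -0.09 and -0.43 on N-SFMA, L-SFMA and NL-SFMA, and the 13 longer ones 0.56, 0.67 and 0.61. On NL-SFMA 5 of the short subunits were 1.5-fold lower and 1 higher, where 39.2% of other genes under 4 kb were lower and 11.5% higher. Of the long ones 7 were higher, where 39.6% of other genes from 4 to 8 kb and 67.2% of longer ones were, and 2 were lower. Among other genes 245 of 3117 from 4 to 8 kb and 15 of 632 over 8 kb were 1.5-fold lower on NL-SFMA. The counts of short subunits and of higher long ones lie near their shares. The PBAF subunit Pbrm1 was at 1.64 and Bcl11b, also a transcription factor of deep-layer neurons, at 1.16 on that gel, while Bcl7b was at -1.09 and Bcl7c at -0.81. The progenitor form of the actin-like subunit, Actl6a, was at 32.5, 22.7, 23.2 and 22.9 FPKM and the neuronal form, Actl6b, at 92.4, 99.1, 87.8 and 60.0 FPKM; this pair was picked after its values were seen. Actl6a differed by -0.50, -0.47 and -0.49, and Actl6b differed by 0.10, -0.07 and -0.61. Other paralogs on the list, also picked after their values were seen, went apart. Ss18 (model 3251 bases) differed by -0.32, -0.20 and -0.72 and Ss18l1 (4182 bases) by 0.56, 0.74 and 0.65. Dpf1 differed by 0.13, 0.19 and -0.36, Dpf2 by -0.34, -0.31 and -0.66 and Dpf3, with 36 to 77 reads, by 0.49, 0.50 and 0.80.

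For NuRD the 9 subunits under 4 kb had medians of -0.27, -0.27 and -0.17 and the 6 longer ones 0.56, 0.68 and 0.50. Length did not order all of them. Gatad2b, with a model of 3054 bases, was at 10.7, 17.7, 18.0 and 39.3 FPKM and its paralog Gatad2a was at -0.70 on NL-SFMA, against 1.79 for Gatad2b (the paralog was picked after its value was seen). The MBD-family subunits were lower on that gel (Mbd3 -1.62 and Mbd2 -0.88), as was the deacetylase Hdac1 (-0.79). Its paralog Hdac2, picked after its value was seen, went the other way, at 172, 210, 195 and 269 FPKM (0.64 on NL-SFMA, model 2216 bases). Of the 9 short NuRD subunits 3 were above SFMA on that gel and 6 below. For COMPASS, the H3K4 methyltransferase complexes, the 6 short subunits had medians of 0.01, 0.06 and -0.17, the second of which changes sign under DESeq2, and the 10 long ones 0.57, 0.89 and 0.81. Of the named partners, the long Ncoa6 (1.88) and Hcfc1 (1.26) were higher on NL-SFMA and the short Cxxc1 (-0.78) and Men1 (-0.39) below SFMA.

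**Figure D4:**
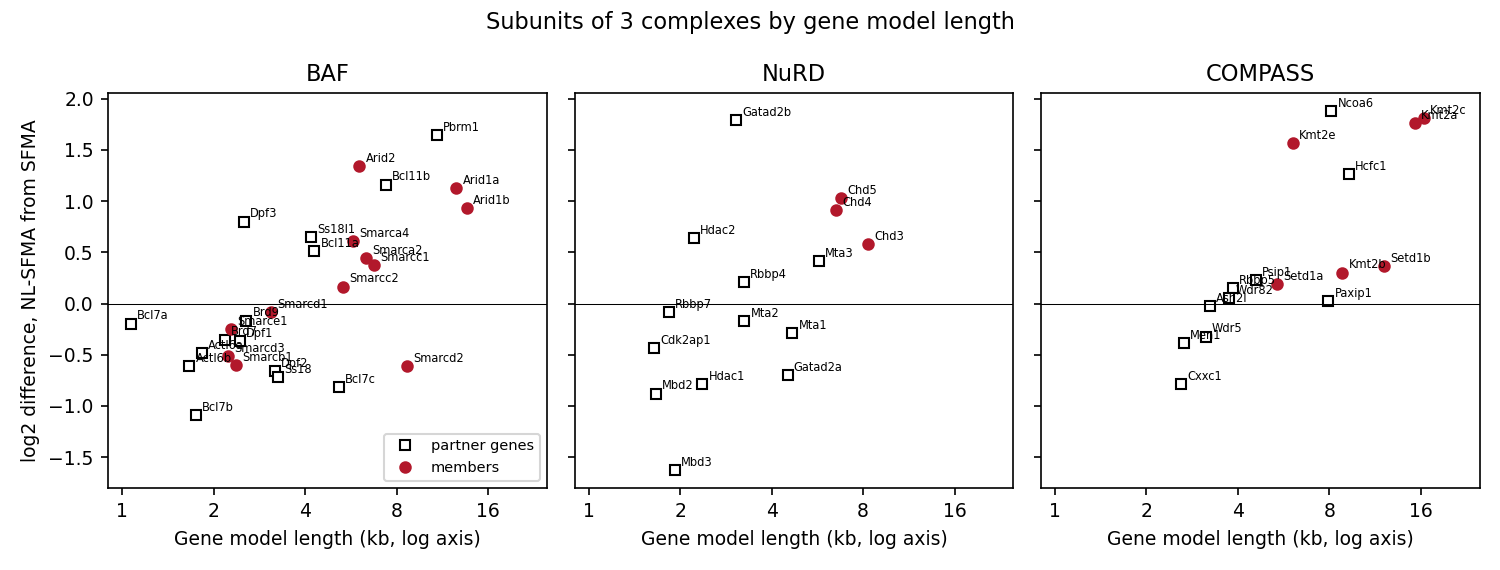
Log2 difference of NL-SFMA from SFMA (y axis) against gene model length in kb (log x axis) for subunits of BAF, NuRD and COMPASS; filled circles are members and open squares partner genes. Long subunits lie mostly above 0 and short ones mostly below, with Gatad2b high at a short model and Smarcd2 low at a long one.

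The ISWI ATPases, which space nucleosomes, were higher by up to 0.81 on the log2 scale. Smarca5, the form of proliferating progenitors, was at 35.7 FPKM on SFMA and 40.1, 41.9 and 49.4 FPKM on the other 3 gels, and Smarca1, the form linked to neuronal differentiation, was at 5.42, 7.63, 8.08 and 10.3 FPKM. Of the related ATPases, Smarcad1, which acts on chromatin behind replication forks, was at 8.30, 11.3, 12.2 and 18.2 FPKM. Smarcal1, which acts at stalled forks, was at 7.10, 7.06, 5.49 and 4.57 FPKM and stood lowest on NL-SFMA, 1.55-fold lower (95% counting interval 1.31 to 1.85) than SFMA. Its N-SFMA difference of -0.01 changes sign under TMM and DESeq2. Of 9 partners of ISWI 4, 6 and 5 were 1.5-fold higher on the 3 gels and 1, 1 and 2 lower. Over all tested genes 7.24%, 14.8% and 21.6% were higher and 10.7%, 11.1% and 29.3% lower. Among other genes from 4 to 8 kb 11.8%, 27.1% and 39.6% were higher. Bptf (1.50 on NL-SFMA), Rsf1 (1.20) and Baz2b (1.07) were higher, and the small histone-fold subunit Chrac1 was lower (-1.07). The 9 genes of INO80 and other remodellers held 2, 3 and 3 higher and 0, 0 and 2 lower, to be read beside the same shares. On NL-SFMA, Atrx (1.99), Ep400 (1.42) and Srcap (1.38) were above and the helicase Ruvbl1 (-1.18) below SFMA.

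The H3K4 methyltransferases held the largest upward differences of the 61 members on L-SFMA and on NL-SFMA, and parted into 2 sets on the latter. Kmt2c, which with its partners primes enhancers by H3K4 monomethylation, was at 1.99 FPKM on SFMA and 4.29, 7.26 and 9.49 FPKM on the other 3 gels. Its fold was 2.16 (1.95 to 2.40), 3.66 (3.33 to 4.02) and 4.78 (4.36 to 5.25), the last 2 of which were the largest of the 61 members. Kmt2a, which keeps Hox and neural genes active, was at 2.70, 5.35, 8.89 and 11.6 FPKM, or 4.29 (3.95 to 4.66) times SFMA on NL-SFMA. Kmt2e, a reader of the family with no established methyltransferase activity, was at 13.4, 22.8, 30.6 and 41.8 FPKM. It has a model of only 6054 bases, and its relative difference of 1.04 on NL-SFMA was the largest of the 61. The order SFMA, N-SFMA, L-SFMA, NL-SFMA held for each of these genes, as it did for 30 of the 61 members (18.0% of all tested genes), 29 of them among the 50 members over 4 kb (38.6% of other genes of that length).

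Kmt2b and both SET1 enzymes, Setd1a and Setd1b, which place most of the H3K4 trimethylation at promoters, were highest on L-SFMA instead. Kmt2b was at 6.40, 8.56, 12.3 and 8.13 FPKM, Setd1a at 9.40, 12.9, 16.2 and 10.9 FPKM and Setd1b at 5.08, 6.29, 8.95 and 6.84 FPKM. From L-SFMA to NL-SFMA their folds were 0.663 (0.613 to 0.717), 0.668 (0.612 to 0.728) and 0.763 (0.709 to 0.822), while those of Kmt2a, Kmt2c and Kmt2e were 1.30 (1.23 to 1.38), 1.31 (1.23 to 1.39) and 1.36 (1.30 to 1.43). The sets were formed by the gel on which each gene was highest, so the parting of these folds was fixed by that choice. The intervals hold the counting error of 1 library per gel only, and the signs held under the 3 other scalings. On NL-SFMA Setd1b, with a model of 12138 bases, lay -0.59 and Kmt2b -0.49 from genes of their length. All 6 genes were at least 1.5-fold higher on L-SFMA, and 3 on NL-SFMA. Among other genes over 8 kb 55.9% and 67.2% were, and among those from 4 to 8 kb 27.1% and 39.6%.

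Of the other SET-domain genes, the 1.5-fold higher ones on L-SFMA and NL-SFMA were Setd2 and Setd5, the longest models of the class. Setd2, the H3K36 trimethylating enzyme that travels with RNA polymerase II, was at 5.66 FPKM on SFMA and 9.91, 11.7 and 15.4 FPKM on the other 3 gels, and Setd5 at 8.75, 12.0, 15.7 and 18.5 FPKM. Setd3, which methylates actin, differed by 0.08, -0.04 and 0.01. Setd4 was at 14.7, 12.6, 13.6 and 11.6 FPKM. Setd6, which methylates a subunit of NF-kappaB, was at 7.31, 5.58, 6.00 and 3.82 FPKM with 91 to 216 reads, and Setd7, which monomethylates H3K4 and other proteins, was low throughout at 2.29, 1.85, 2.53 and 2.11 FPKM. Setd4 and Setd6, with models of 1828 and 1683 bases, were below SFMA on all 3 gels, with relative differences between -0.14 and 0.32. Of 12 other histone methyltransferases 2, 4 and 5 were 1.5-fold higher and 0 lower. Among the higher ones were the H3K36 enzymes Nsd1 (1.95 on NL-SFMA), Ash1l (1.64) and Nsd2 (1.19) and the H3K9 enzyme Prdm2 (0.98). Among other genes from 4 to 8 kb 11.8%, 27.1% and 39.6% were higher. Over all tested genes 7.24%, 14.8% and 21.6% were higher and 10.7%, 11.1% and 29.3% lower. The 9 genes of PRC2, which methylates H3K27, held 0, 0 and 1 higher and 1 lower on each gel, with Suz12 at 0.84, Jarid2 at 0.53, Phf19 at -0.58 and Phf1 at -1.41 on NL-SFMA.

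The H4K20 methyltransferases went different ways, as did the ARID5 pair. Kmt5b, which places di- and trimethylation of H4K20, was at 8.27 FPKM on SFMA and 12.0, 17.4 and 19.9 FPKM on the other 3 gels, and on NL-SFMA it was 2.41 (2.22 to 2.62) times SFMA. Kmt5c, which makes the same marks, was at 23.4, 17.0, 26.4 and 9.57 FPKM. It was 2.44-fold lower (95% counting interval 2.15 to 2.78) than SFMA on NL-SFMA, and its relative difference there was -0.82. Kmt5a, the monomethylating enzyme of dividing cells, differed by -0.09, 0.22 and 0.04 and lay -0.71 from genes of its length (8101 bases) on NL-SFMA. Arid5b, which works with the demethylase Phf2, was at 1.39, 2.31, 2.80 and 4.21 FPKM. Arid5a, an RNA-binding protein that stabilises inflammatory transcripts, was at 3.00 FPKM on SFMA and 1.07, 0.936 and 0.259 FPKM on the other 3 gels, with 172, 54, 50 and 12 reads. It was 2.80-fold lower (95% counting interval 2.05 to 3.88) than SFMA on N-SFMA, 3.20-fold lower (2.32 to 4.48) on L-SFMA and 11.6-fold lower (6.46 to 22.8) on NL-SFMA, and it had the lowest relative difference of the 61 in each comparison (-0.94, -1.11 and -1.60). The microglial markers summed to 21.2, 7.47, 14.8 and 5.62 FPKM, of which Tyrobp was 15.7, 4.29, 10.3 and 3.20 FPKM. Their part in the Arid5a values was not tested. Of the other ARID genes, Arid4b, a partner of the Sin3 deacetylase complex, was at 7.15, 10.5, 12.0 and 18.1 FPKM and Arid4a at 3.92, 4.34, 7.14 and 6.25 FPKM.

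Both are sets of paralogs with unlike values, picked after those were seen, so the 250 bases before the start of these 4 genes, and of Kmt2c as the member with the largest upward fold, are given from RefSeq (build GRCr8), 5′ to 3′ on the gene's strand, in lower case with each CG dinucleotide in capitals. Kmt5b lies at chr1:210429422-210429671 on the plus strand, Kmt5c at chr1:78135932-78136181 on the minus strand, Arid5b at chr20:20306464-20306713 on the plus strand, Arid5a at chr9:46030329-46030578 on the plus strand and Kmt2c at chr4:10353448-10353697 on the plus strand.
Kmt5b: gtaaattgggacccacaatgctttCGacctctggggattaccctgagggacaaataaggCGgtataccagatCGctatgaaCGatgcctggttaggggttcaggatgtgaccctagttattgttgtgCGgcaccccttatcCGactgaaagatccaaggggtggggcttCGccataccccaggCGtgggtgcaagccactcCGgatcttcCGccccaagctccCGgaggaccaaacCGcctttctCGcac
Kmt5c: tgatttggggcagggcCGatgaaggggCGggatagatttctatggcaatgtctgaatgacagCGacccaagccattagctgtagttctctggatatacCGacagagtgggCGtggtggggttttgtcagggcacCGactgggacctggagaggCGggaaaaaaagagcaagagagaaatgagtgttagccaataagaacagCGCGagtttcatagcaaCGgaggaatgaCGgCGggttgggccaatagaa
Arid5b: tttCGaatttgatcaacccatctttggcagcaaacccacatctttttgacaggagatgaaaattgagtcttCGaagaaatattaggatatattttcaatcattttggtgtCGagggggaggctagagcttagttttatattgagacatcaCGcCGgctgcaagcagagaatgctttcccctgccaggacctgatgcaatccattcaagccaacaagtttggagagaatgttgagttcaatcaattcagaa
Arid5a: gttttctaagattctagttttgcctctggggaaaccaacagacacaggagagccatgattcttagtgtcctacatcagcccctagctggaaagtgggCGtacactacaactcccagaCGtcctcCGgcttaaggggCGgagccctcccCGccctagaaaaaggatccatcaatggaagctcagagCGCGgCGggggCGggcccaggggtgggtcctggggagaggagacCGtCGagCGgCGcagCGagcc
Kmt2c: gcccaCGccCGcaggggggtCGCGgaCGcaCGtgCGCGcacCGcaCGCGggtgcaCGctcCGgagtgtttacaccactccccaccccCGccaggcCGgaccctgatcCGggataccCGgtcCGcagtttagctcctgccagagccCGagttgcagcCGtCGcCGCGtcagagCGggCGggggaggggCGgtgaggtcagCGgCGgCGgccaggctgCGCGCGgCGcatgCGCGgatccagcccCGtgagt
These windows held 13 CG dinucleotides for Kmt5b and 12 for Kmt5c, 5 for Arid5b and 14 for Arid5a, and 36 for Kmt2c. For the 52 members matched by symbol (6 with several starts, of which the outermost was used) the median was 20, with a range of 4 to 43, for 9178 other tested genes 17 and 6 for all 27457 promoters listed. A GC box (GGGCGG on either strand; matches of different motifs may overlap) stood in 39 of the 52 windows (75%), in 60.6% of those of other tested genes and in 32.4% of all. The ETS motif CCGGAAG was in 6 of the 52 (11.5%, against 16.1% of other tested genes and 7.75% of all), the E-box CACGTG in 3 (5.77%, 8.29% and 5.78%) and the NRF1 core GCATGCG in 5 (9.62%, 6.07% and 3.13%). Promoter GC content and the log2 difference had a Pearson r of 0.18, 0.22 and 0.08 on the 3 gels across the 52 genes (which share both libraries of each difference). Chd2, Chd7, Chd8, Kdm6a, Kmt2a, Kmt2e, Setd5, Setd7 and Smarcc2 were not matched.

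The 16 lysine demethylases were all above SFMA in each of the 3 comparisons. This held for 34.8% of all tested genes, and 66.2% of other genes over 4 kb were lowest on SFMA. By 1.5-fold, 4, 9 and 10 were higher and 0 lower, where 11.8%, 27.1% and 39.6% of other genes from 4 to 8 kb were higher. The class medians were 0.48, 0.65 and 0.78, with relative medians of 0.29, 0.25 and 0.33. Among the enzymes that act on H3K4, Kdm1a (LSD1), which works with CoREST, was at 63.5 FPKM on SFMA and 83.0, 87.7 and 88.4 FPKM on the other 3 gels. With a model of only 3078 bases it differed by 0.38, 0.46 and 0.47, and its relative differences of 0.38, 0.38 and 0.57 were about as large. Kdm1b, its paralog, was at 10.4, 14.5, 17.1 and 17.7 FPKM. Kdm5b, which removes H3K4 trimethylation, was at 34.3, 65.6, 65.5 and 78.6 FPKM, a fold of 1.91 (1.84 to 1.99) on N-SFMA and 2.29 (2.21 to 2.38) on NL-SFMA. Kdm5c, the X-linked intellectual disability gene, was at 17.1, 28.9, 29.3 and 29.8 FPKM, the same on the other 3 gels to within 0.04 on the log2 scale. Kdm5a, at 2.71, 4.64, 6.04 and 8.20 FPKM, had the longest model of the class (14930 bases) and relative differences of 0.16, 0.22 and 0.35. Kdm5d, the Y-linked copy of Kdm5c, was at 2.30, 3.54, 3.50 and 5.17 FPKM. Reads of close copies may be shared between them in the counting, so this value is uncertain.

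Of the H3K27 demethylases, Kdm6a was at 4.38 FPKM on SFMA and 6.36, 7.68 and 10.01 FPKM on the other 3 gels, while Kdm6b, which is induced by stimuli and opens neurogenic genes, was at 23.9, 34.0, 46.1 and 31.0 FPKM, highest on L-SFMA. From L-SFMA to NL-SFMA the fold was 1.30 (1.17 to 1.45) for Kdm6a and 0.673 (0.64 to 0.709) for Kdm6b. The KDM4 enzymes, which act on H3K9 and H3K36, likewise parted: Kdm4a was at 63.5, 92.0, 91.8 and 69.8 FPKM and Kdm4b at 26.2, 38.5, 41.2 and 26.8 FPKM, near SFMA on NL-SFMA, and Kdm4c at 5.64, 6.30, 6.84 and 7.98 FPKM. The H3K9 enzymes Kdm3a (13.9, 20.5, 20.7 and 26.7 FPKM) and Kdm3b (13.7, 21.9, 23.8 and 24.5 FPKM) were above SFMA on all 3 gels, Kdm3b by over 1.5-fold on each and Kdm3a on NL-SFMA. Kdm2a, an H3K36 demethylase, was at 11.1, 15.5, 19.8 and 22.0 FPKM, and Kdm2b, which brings Polycomb to CpG islands, at 44.2, 52.7, 53.1 and 55.6 FPKM. Kdm7a, which acts on H3K9 and H3K27, was low, at 0.711, 1.13, 1.50 and 2.67 FPKM, but 3.76 (3.00 to 4.76) times SFMA on NL-SFMA. Of 5 other JmjC demethylases 1, 2 and 3 were 1.5-fold higher and 0 lower, where 11.8%, 27.1% and 39.6% of other genes from 4 to 8 kb were higher. On NL-SFMA Jmjd1c was at 1.45, Phf8 at 0.77, the Y-linked Uty at 0.73 and Kdm8 at -0.28.

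Set against the gels with 1 letter, NL-SFMA gave members on both sides of 0. The 2 comparisons share the NL-SFMA library. Against N-SFMA the median of the members was 0.16 (all tested genes -0.06), with 14 at least 1.5-fold higher and 2 lower, where 12.5% and 18% of all tested genes were. The members furthest above were Kmt2a (0.99), Kmt2c (0.99) and Kmt2e (0.85). Against L-SFMA it was 0.04 (all tested genes -0.13), with 0 higher and 4 lower (7.23% and 20.9%), the 4 being Kmt5c (-1.38), Smarcd2 (-0.95), Arid5a (-0.62) and Kdm4b (-0.60). Library scaling bears on this pair: TMM and DESeq2 size factors move the median of all genes by 0.11 and 0.14, and then 4 and 6 members were 1.5-fold higher and 2 lower. The members' medians were then 0.16 and 0.20 against L-SFMA and 0.19 and 0.22 against N-SFMA, so the gap between both comparisons rests on the scaling. The signs of Arid1a and Chd2 (-0.01 and -0.11) change under both, those of Chd1l and Chd6 (-0.10 and -0.13) under DESeq2, and against N-SFMA that of Smarca4 (-0.01) under both. Past 2-fold 0 members were higher and 0 lower against N-SFMA (2.15% and 5.58% of all tested genes), and 0 higher and 1 lower, Kmt5c, against L-SFMA (0.871% and 6.87%). Relative to genes of like length the medians were -0.08 against N-SFMA, a value that changes sign with a reference matched on length and expression, and -0.07 against L-SFMA. Across all 4 libraries 32 members were highest on NL-SFMA, 17 on L-SFMA, 6 on N-SFMA and 6 on SFMA, and 47 were lowest on SFMA. Of all tested genes these shares were 32.2%, 22.3%, 8.73% and 36.7%, and 34.9% were lowest on SFMA, while of other genes over 4 kb they were 54.5%, 29.1%, 5.33% and 11.0%, with 66.2% lowest on SFMA.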

How the data were processed

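Poly(A) RNA was sequenced as 4 libraries, 1 per hydrogel (NEBNext Ultra libraries from 1.5 µg of RNA, per the labels' protocols). For each library the authors deposited raw read counts per gene and FPKM values. HISAT2 and HTSeq 0.13.5 are named in the submitters' processing notes, with the builds mRatBN7.2 and GRCh38 and no role for either; the labels name neither the strand setting nor filters. The authors' FPKM is the count over the model length and the summed count: lengths recovered from both deposited columns agreed between libraries to within 1e-06 bases. Summed counts were 14172205 to 17553098.

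Differences are log2 ratios of FPKM + 1 over the 12394 genes with at least 1 FPKM in 1 library. Folds are ratios of counts over summed counts, with exact (Clopper-Pearson) 95% intervals conditional on both counts. Length references are medians of the 500 nearest non-members. The interval and length steps were tested on data simulated with Poisson counts. That simulation held no PCR duplicates and no spread between cultures, so it could not check the intervals for either. Scalings came from edgeR 4.0.16 (TMM) and DESeq2 1.42.0. Python 3.11.15 was used. The members and lists were chosen with earlier results of these data known. Full values were given for core ATPases and enzymes fixed by name and the 8 highest and 8 lowest members by mean difference from SFMA. Levels of most other members were added outside that rule. The contrasts within the H3K4 class and between paralogs were picked after the values were seen. Of each partner list, at most the 4 genes furthest from SFMA on NL-SFMA were named by rule. The BAF and NuRD paralogs beyond these were added after their values were seen. Genome positions are not reported for the gene models.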

Additional observations from a re-analysis of the deposited data

How the results depend on the processing

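The members' medians and counts, and the medians of classes, length bins and complexes against SFMA, were recomputed under 6 settings (TMM, DESeq2 size factors, summed counts without mitochondrial genes, a pseudocount of 0.1 FPKM, a filter at 5 FPKM, no filter beyond 1 read) and the relative medians under 5; counts by class or partner list were not. Of these values 150 for the 61 members and 294 for the classes, length bins and complexes kept their sign and stayed within 1.5 times (counts) or within the binomial 95% interval of the main median (medians). Of the rest, 29 for the 61 members moved past these limits and 1 changed sign. For the classes, length bins and complexes 3 moved past them and 9 changed sign. Medians of the 61 members against SFMA kept their sign under each setting. That of the other SET-domain genes, near 0, did not: it was 0.077 in place of -0.06 on N-SFMA with the filter at 5 FPKM, -0.014, -0.026 and -0.038 in place of 0.03 on L-SFMA with TMM, DESeq2 and that filter, and 0.025, 0.047, 0.0048 and 0.0102 in place of -0.03 on NL-SFMA with TMM, DESeq2, no mitochondrial genes and that filter. The short COMPASS subunits had -0.0029 on L-SFMA with DESeq2. The cause was not tested. Members 2-fold higher on N-SFMA numbered 2 with TMM or DESeq2 and 3 with the pseudocount of 0.1, in place of 1, and on L-SFMA 13 with that pseudocount, in place of 8. Members 1.5-fold lower numbered 0 on N-SFMA and 0 on L-SFMA with the filter at 5 FPKM, in place of 1 each (Arid5a, which does not pass that filter), and 3 on NL-SFMA with TMM, DESeq2 or that filter, in place of 5. For NL-SFMA against N-SFMA, 2-fold higher members numbered 2 with TMM, DESeq2 or without mitochondrial genes and 3 with the pseudocount of 0.1, in place of 0, and 1.5-fold lower members 4 with that pseudocount and 1 with the filter, in place of 2. The relative median of that pair was 0.035 with a reference matched on length and expression, in place of -0.08; its cause was not tested either. For NL-SFMA against L-SFMA the median was 0.16 with TMM and 0.20 with DESeq2, in place of 0.04, members 1.5-fold higher numbered 4 with TMM, 6 with DESeq2, 3 without mitochondrial genes and 2 with the pseudocount of 0.1, in place of 0, and members 1.5-fold lower 2 with TMM, DESeq2 or the filter, in place of 4. Members 2-fold lower numbered 1 on N-SFMA with the pseudocount of 0.1 in place of 0, 0 on L-SFMA and 1 on NL-SFMA with the filter in place of 1 and 2, and with that pseudocount 1 against N-SFMA and 3 against L-SFMA on NL-SFMA, in place of 0 and 1. Depth limits Arid5a most, with 12 reads on NL-SFMA. No paired analysis was possible because each hydrogel has 1 library and the labels give no shared replicate numbers.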

Other observations

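The Y-linked Kdm5d and Uty could be set beside other genes of that chromosome, picked after the values of Kdm5d were seen. Eif2s3y was at 16.3, 12.9, 12.6 and 15.2 FPKM and Ddx3y at 0.158, 0.0652, 0.2 and 0.0355 FPKM, with 2 to 13 reads. Kdm5d (2.30, 3.54, 3.50 and 5.17 FPKM, model 6181 bases) and Uty (0.478, 0.802, 0.968 and 1.45 FPKM, model 7269 bases) stood lowest on SFMA and highest on NL-SFMA, as many long genes did. Eif2s3y (model 2873 bases) was instead lower on N-SFMA and L-SFMA than on SFMA. Its small gap between SFMA and NL-SFMA was not recomputed under other scalings. The order of the libraries thus differed between genes of 1 chromosome.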
